A study of Mus musculus with 20 samples.

Results

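Neuronal splicing and RNA stability regulators were taken as 10 mouse genes named by symbol, namely Elavl2, Elavl3, Elavl4, Rbfox1, Rbfox2, Rbfox3, Nova1, Nova2, Ptbp1 and Ptbp2. They are 10 of the 25625 genes listed in all 4 expression tables, and each was found there once. In the editing tables they held 154 of 94699 listed sites in the fixed E10.5 embryo, 414 of 153406 in libraries whose label is E10.5 fresh-frozen embryo, 863 of 271383 in E12.5 brain and 1121 of 384044 in E16.5 brain. The genes are set by name, and the rule that picks them uses no measured value, although they were chosen with earlier results of these data known.

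MAPIT-seq was used to mark RNA near G3BP1, a core protein of stress granules, and the study also gives transcript levels from the same poly(A) RNA libraries. All animals were wild-type C57BL/6J mice. In the anti-G3BP1 groups an antibody to G3BP1, a guinea pig anti-rabbit antibody and a protein A/G fusion carrying the deaminases rAPOBEC1 and hADAR2 were applied to sections with a fixation of 0.2% formaldehyde, so that RNA near the target gains A-to-G and C-to-T edits. The IgG groups had rabbit IgG in place of the G3BP1 antibody and otherwise the same treatment, so they give the background of the fusion. The untreated groups had no antibody, no fusion and, per their labels, no fixation, although the titles of those from the fixed embryo call them fixed. The 20 libraries formed 10 groups of 2: anti-G3BP1, IgG and untreated for the fixed E10.5 embryo and for the embryo labelled E10.5 fresh-frozen, and anti-G3BP1 and IgG for E12.5 brain and for E16.5 brain. The labels do not say that the 2 libraries of a group come from separate animals, and a p-value here therefore reflects no more than how far these libraries scatter, which may be technical.

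The products of these genes act on RNA after transcription. The neuronal ELAVL (Hu) proteins bind U-rich and AU-rich stretches, many of them in 3′ UTRs, and are known for stabilizing their targets and for altering splicing. The RBFOX and NOVA proteins are sequence-specific regulators of alternative exons in neurons. PTBP1 represses neuronal exons in progenitors and non-neural cells, including one that the PTBP2 transcript needs, and PTBP2 takes over in young neurons.

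The label E10.5 fresh-frozen embryo was not borne out by its libraries: the summed TPM (a level per transcript length, scaled to the library total) of 4 heart markers lay between 3.31 and 14.3 in them, against 3168 to 5038 in the fixed E10.5 embryo, and 9 neuronal markers summed to between 4261 and 5877 there, against 496 to 1084 in the fixed embryo. They are called the libraries labelled fresh-frozen throughout. Mean depth at sites covered by at least 10 reads throughout their table ranged from 33.9 to 206 reads in the fixed embryo, from 56.0 to 93.9 in the libraries labelled fresh-frozen, from 23.2 to 68.9 in E12.5 brain and from 110 to 192 in E16.5 brain, where the lowest E12.5 value belongs to IgG replicate 1. G3bp1 itself, which codes for the antibody's target, had between 92.7 and 221 TPM over all 20 libraries.

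The member sites shown here are among those edited with anti-G3BP1 in 2 or more tables. Of 2178 distinct member sites, 0 were listed in all 4 tables and 14 (0.643%) carried edited reads in both anti-G3BP1 libraries of 2 or more tables. Over all 801241 distinct sites the shares were 0.126% and 0.611%, so that the members were close to the sites at large. Of these 14, 5 lay in Rbfox2, 4 in Ptbp2 and 1 each in Elavl2, Elavl4, Rbfox1, Nova1 and Nova2. The 11 that follow come from up to 3 sites per gene and all lie in an annotated 3′ UTR (GENCODE transcripts, build GRCm38). Each line gives the position of the edited base and the transcript sequence 5′ to 3′ with 10 bases on either side, and the edited base is the capital. Edits in both anti-G3BP1 libraries chose these sites, so a higher share with anti-G3BP1 than with IgG at them is a description and supports nothing.
Rbfox2 A-to-G site, chr15:77079228-77079228, minus strand: catattgtatAgtagctttca
Rbfox2 C-to-T site, chr15:77079116-77079116, minus strand: ttttgtattaCtctccatgtg
Rbfox2 second A-to-G site, chr15:77079060-77079060, minus strand: ctcttagcaaAggaggggccc
Ptbp2 A-to-G site, chr3:119719326-119719326, minus strand: atgtgcctttAgtcttaattt
Ptbp2 second A-to-G site, chr3:119719214-119719214, minus strand: ctacaggtcaAatttatttga
Ptbp2 other A-to-G site, chr3:119719952-119719952, minus strand: tcaaaaggttAagtttttatt
Elavl4 A-to-G site, chr4:110205233-110205233, minus strand: aaaattaaaaAgattcatttt
Elavl2 A-to-G site, chr4:91252123-91252123, minus strand: catggtgtttAgtgatgtact
Rbfox1 A-to-G site, chr16:7410759-7410759, plus strand: gaaagtaataAaaacttaaat
Nova1 A-to-G site, chr12:46698475-46698475, minus strand: cccattggttAcgtccatcct
Nova2 A-to-G site, chr7:18964105-18964105, plus strand: ctggctcaaaAagaatggctt

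Elavl3 (HuC) had the highest mean TPM of the 10 genes in every table but the fixed embryo, although in E16.5 brain its range overlapped that of Rbfox2. It had 1302 and 1282 TPM in the anti-G3BP1, 1076 and 1404 TPM in the IgG and 1273 and 1150 TPM in the untreated libraries labelled fresh-frozen. In E12.5 brain it had 284 and 326 TPM with anti-G3BP1 and 238 and 304 TPM with IgG, and in E16.5 brain 260 and 289 TPM with anti-G3BP1 and 298 and 283 TPM with IgG. In the fixed embryo it lay between 58.8 and 89.3 TPM. The 2 brain ranges overlapped, and the libraries labelled fresh-frozen stood above all others. Elavl4 (HuD), which is known for binding growth-associated neuronal mRNAs, ran from 23.9 to 47.5 TPM in the fixed embryo, 271 to 318 TPM in the libraries labelled fresh-frozen, 80.1 to 107 TPM in E12.5 brain and 117 to 141 TPM in E16.5 brain. Elavl2 (HuB) was the lowest of the family, with 9.38 to 17.8 TPM, 142 to 172 TPM, 20.3 to 29.9 TPM and 48.8 to 61.1 TPM in the same order of tables. For Elavl2 and Elavl4 no range overlapped that of another table. Elavl3 made up 47.4% to 67.1% of the summed TPM of Elavl2, Elavl3 and Elavl4 in the fixed embryo, 68.7% to 75.9% in the libraries labelled fresh-frozen, 66.8% to 74.5% in E12.5 brain and 56.2% to 62.9% in E16.5 brain.

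The Rbfox genes differed from each other in where they were found. Rbfox1 had 1.59 to 3.71 TPM in the fixed embryo and 3.53 to 8.50 TPM in E12.5 brain, ranges that overlap, then 43.3 to 46.8 TPM in E16.5 brain and 143 to 232 TPM in the libraries labelled fresh-frozen. Rbfox3, whose product is the neuronal nuclear antigen NeuN, had 3.89 to 6.77 TPM in the fixed embryo, 31.2 to 40.3 TPM in E12.5 brain, 71.5 to 76.1 TPM in E16.5 brain and 119 to 140 TPM in the libraries labelled fresh-frozen, with no overlap between tables. Rbfox2, which is also used outside the nervous system, was the main family member in the fixed embryo, with 58.3 to 73.2 TPM. It reached 77.6 to 131 TPM in E12.5 brain, 185 to 239 TPM in the libraries labelled fresh-frozen and 251 to 265 TPM in E16.5 brain, and its highest table was therefore not that of Rbfox1 and Rbfox3. Rbfox2 gave 89.3% ± 1.63 of the summed Rbfox1, Rbfox2 and Rbfox3 TPM in the fixed embryo (SD, n = 6), 39.2% ± 1.82 in the libraries labelled fresh-frozen (SD, n = 6), 70.5% ± 2.50 in E12.5 brain (SD, n = 4) and 68.3% ± 0.272 in E16.5 brain (SD, n = 4). Rbfox1 gave 3.82% ± 0.826, 36.1% ± 3.69, 3.84% ± 1.16 and 12.1% ± 0.370 in the same order of tables and with the same n.

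Nova1 and Nova2, which bind YCAU clusters near neuronal exons, were close to each other in the brain tables. Nova1 had 26.7 to 37.5 TPM in the fixed embryo, 78.9 to 110 TPM in the libraries labelled fresh-frozen, 116 to 131 TPM in E12.5 brain and 115 to 126 TPM in E16.5 brain. Both brain stages thus stood above the libraries labelled fresh-frozen, as they did for Ptbp1, but for none of the other 8 genes. Nova2 had 30.2 to 56.0 TPM, 149 to 351 TPM, 113 to 137 TPM and 150 to 163 TPM in the same order. The ratio of Nova2 to Nova1 lay between 0.860 and 1.08 in E12.5 brain, between 1.29 and 1.36 in E16.5 brain and between 1.35 and 4.06 in the libraries labelled fresh-frozen, where single libraries differed most.

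Ptbp1 and Ptbp2 ran in opposite directions. Ptbp1 was highest in the fixed embryo, with 203 and 209 TPM in the anti-G3BP1, 240 and 226 TPM in the IgG and 206 and 178 TPM in the untreated libraries. Among those labelled fresh-frozen it had 30.2 and 29.4 TPM with anti-G3BP1, 18.2 and 19.4 TPM with IgG and 38.0 and 22.9 TPM without treatment. It had 74.1 and 77.8 TPM with anti-G3BP1 and 101 and 101 TPM with IgG in E12.5 brain, and 64.8 and 67.1 TPM with anti-G3BP1 and 60.2 and 62.3 TPM with IgG in E16.5 brain. No table's Ptbp1 range overlapped that of another. Ptbp2 had 36.9 to 54.5 TPM in the fixed embryo, 114 to 165 TPM in the libraries labelled fresh-frozen, 77.5 to 110 TPM in E12.5 brain and 118 to 132 TPM in E16.5 brain, of which the libraries labelled fresh-frozen and E16.5 brain overlapped. The ratio of Ptbp2 to Ptbp1 TPM was 0.181 to 0.265 in the fixed embryo, 3.54 to 9.09 in the libraries labelled fresh-frozen, 0.997 to 1.09 in E12.5 brain and 1.78 to 2.14 in E16.5 brain. These levels are a description: the 4 tables were normalized separately, and stage, tissue, sex, preparation and table cannot be told apart. In such bulk libraries fewer cells of a type and less RNA per cell cannot be told apart either.

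**Figure D1:**
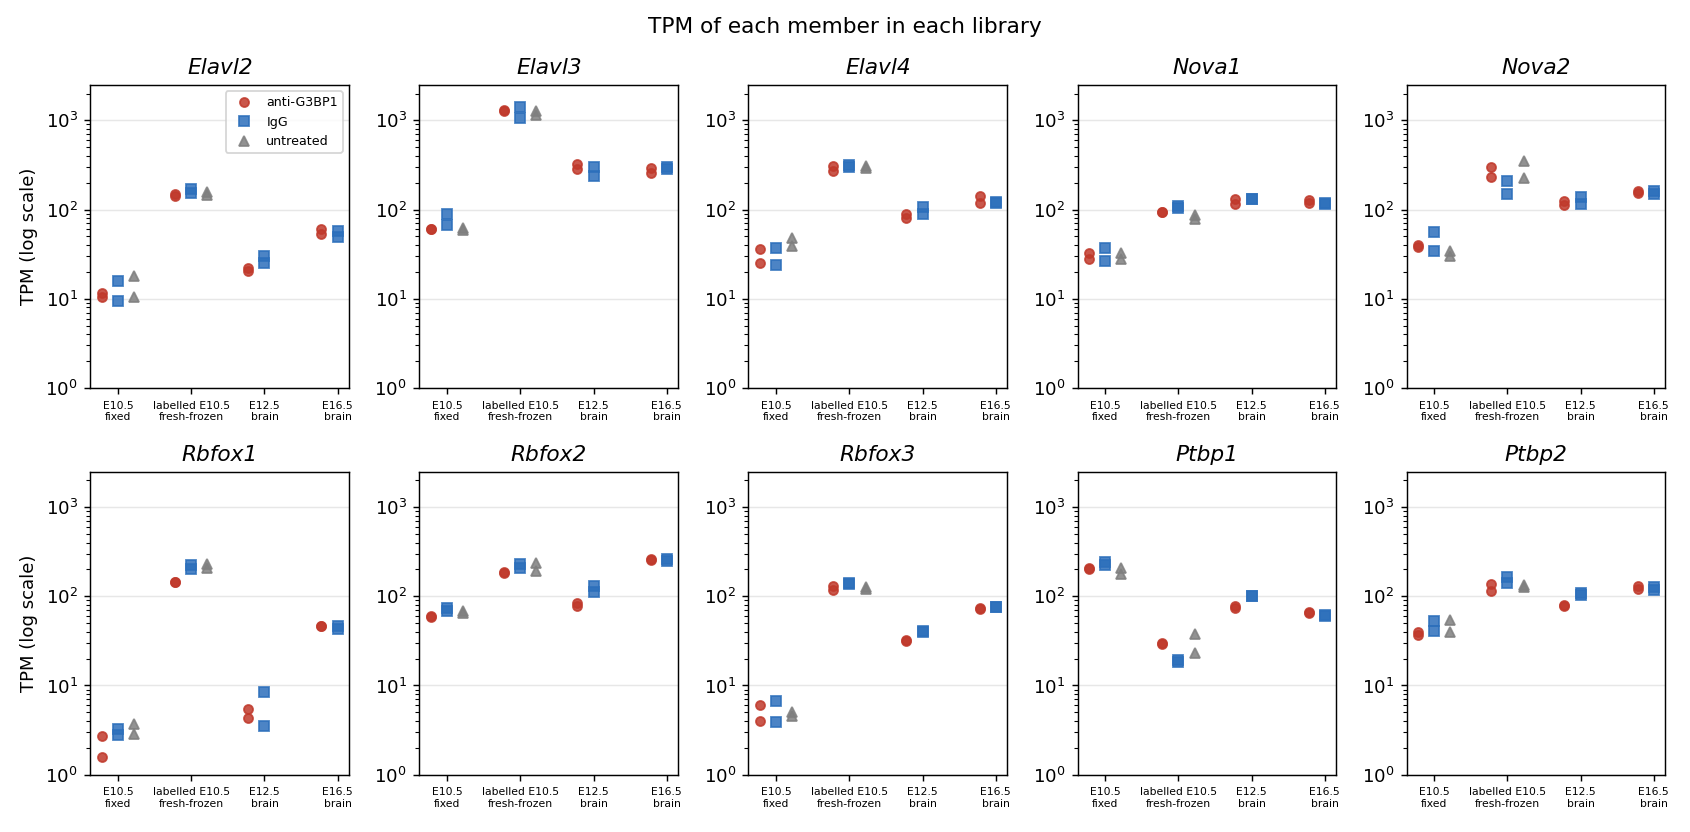
TPM on a log axis for each of the 10 genes (panels) in each of the 20 libraries, by table along the horizontal axis and by antibody (circles anti-G3BP1, squares IgG, triangles untreated). Ptbp1 is highest in the fixed embryo at 178 to 240 TPM and lowest in those labelled fresh-frozen at 18.2 to 38.0 TPM, whereas Rbfox1 and Rbfox3 run the other way.

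**Figure D2:**
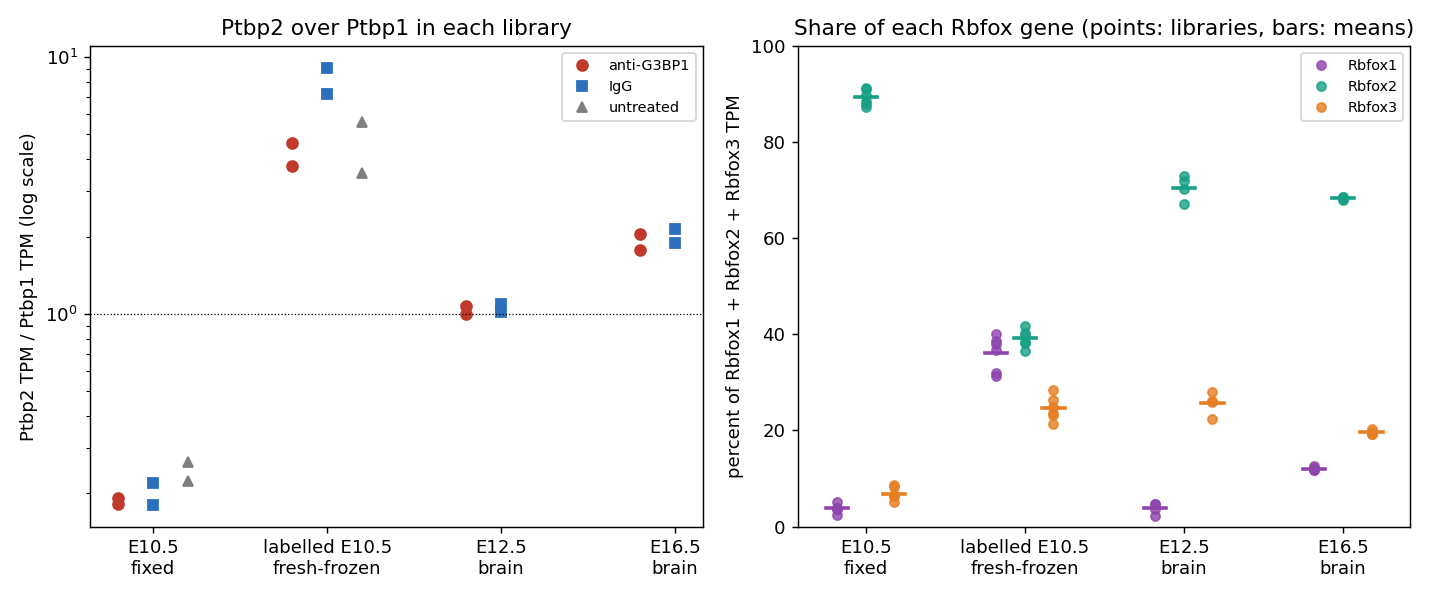
Left, the ratio of Ptbp2 to Ptbp1 TPM in each library on a log axis, by table and antibody, with a dotted line at 1. Right, the percent of the summed Rbfox1, Rbfox2 and Rbfox3 TPM held by each gene, with points for libraries and bars for table means: the Rbfox2 mean is 89.3% in the fixed embryo and 39.2% in those labelled fresh-frozen.

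The stage comparison asks how these genes differ between E16.5 and E12.5 brain, with limma on log2(TPM + 1) and the antibody as a covariate, adjusted over all genes by Benjamini-Hochberg. Stage and table cannot be told apart in it, and the anti-G3BP1 and IgG libraries of a stage are the same tissue. At an adjusted p under 0.05, 7 of the 10 genes were higher and 1 was lower at E16.5. The same test called 32.3% of the 20162 genes higher and 17.7% lower. Rbfox1 rose most: it averaged 45.6 TPM at E16.5 and 5.45 TPM at E12.5, a log2 fold change of 2.91 ± 0.23 (SE, adjusted p = 1.4e-05). Rbfox2 averaged 258 TPM at E16.5 and 101 TPM at E12.5, with a log2 fold change of 1.38 ± 0.13. Elavl2 rose by 1.15 ± 0.14 and Rbfox3 by 1.03 ± 0.09 on the same log2 scale. Smaller rises were called for Elavl4 (0.45 ± 0.11, adjusted p = 0.00758), Ptbp2 (0.44 ± 0.11, adjusted p = 0.00964) and Nova2 (0.36 ± 0.09, adjusted p = 0.00796).

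Ptbp1 was the member that fell. It averaged 63.6 TPM at E16.5 and 88.5 TPM at E12.5, and its log2 fold change was -0.46 ± 0.11 (SE, adjusted p = 0.00948). Its IgG libraries at E12.5 stood above the anti-G3BP1 ones, but all 4 E16.5 libraries lay below all 4 E12.5 libraries. Elavl3 and Nova1 were not called, with log2 fold changes of -0.02 ± 0.11 and -0.09 ± 0.08, and the sign for Elavl3 turned with quantile normalization, where it was 0.028. The median log2 fold change of the 10 genes was 0.45, beside 0.17 over all genes tested. Quantile normalization moved the median of all genes to -0.03, and the calls over all genes to 5190 higher and 4830 lower, against 6516 higher and 3573 lower. Under it 7 members were again called higher and 1 lower, with 2.71 for Rbfox1 and -0.56 for Ptbp1.

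Markers of cell types moved with stage as well, and their part in these changes was not tested. All 9 neuronal markers rose, summing to between 5162 and 5257 TPM at E16.5 and between 2855 and 3420 TPM at E12.5. Of 7 progenitor markers 6 fell and 0 rose, with sums of 1713 to 2246 TPM at E16.5 and 3656 to 3879 TPM at E12.5. All 5 glial markers rose, with sums of 236 to 300 TPM at E16.5 and 28.9 to 81.6 TPM at E12.5. The 5 blood markers split, with 2 called higher at E16.5 (Hbb-bs and Hbb-bt) and 3 lower (Hbb-y, Hbb-bh1 and Hba-x). They summed to 849 to 934 TPM at E16.5 and 7998 to 11583 TPM at E12.5.

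Among 23 other regulators of neural splicing or mRNA stability, 21 passed the filter, of which 9 were higher and 5 lower at E16.5, with a median log2 fold change of 0.36. The higher ones were 5 of the CELF family, which bind GU-rich RNA (Celf1, Celf2, Celf4, Celf5 and Celf6, at 0.52, 1.84, 1.22, 1.62 and 1.22), the 3 STAR-family genes Khdrbs1, Khdrbs2 and Khdrbs3 (0.37, 1.19 and 1.15), and Srrm3 (0.36), a partner of neuronal microexon splicing. The lower ones were Msi1 (-1.58) and Msi2 (-0.49), which code for Musashi proteins of neural progenitors, Raver1 (-0.81) and Raver2 (-0.76), whose products bind PTBP1, and Celf3 (-0.39). The 2 Musashi and 2 Raver genes thus had the sign of Ptbp1, and Celf3 parted from the rest of its family.

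Over all 20 libraries the genes nearest to Rbfox3 in pattern were Oprl1, Rab6b and Pcsk2, with root mean square differences of 0.23, 0.23 and 0.24 in centred log2(TPM + 1), among 15676 genes compared. Oprl1 codes for the nociceptin receptor, Rab6b for a neuronal Golgi GTPase and Pcsk2 for a prohormone convertase. The nearest to Ptbp1 were Net1 (0.22), Gm45552 (0.24) and Rpl13a (0.27), of which Net1 codes for a RhoA exchange factor and Rpl13a for a ribosomal protein. These are descriptions over libraries that share tables, with no test.

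Transcript levels were also compared between antibodies within each table, a test added after the data were seen. With limma none of the 10 genes passed an adjusted p under 0.05 in any table, where 0, 0, 0 and 2 of all genes did (0.0, 0.0, 0.0 and 0.0108%). At an unadjusted p under 0.05 there were 2, 3, 3 and 0 members in the fixed embryo, the libraries labelled fresh-frozen, E12.5 brain and E16.5 brain, beside 11.4, 12.3, 13.6 and 9.92% of all genes. Rbfox1 in the libraries labelled fresh-frozen had 144 and 143 TPM with anti-G3BP1 and 201 and 225 TPM with IgG, a log2 fold change of -0.57 ± 0.10 (adjusted p = 0.204). The anti-G3BP1 libraries lay below both other groups for Rbfox1 and above IgG for Ptbp1, whose log2 fold change was 0.64 ± 0.15 (adjusted p = 0.257). In E12.5 brain Rbfox2 had 77.6 and 83.7 TPM with anti-G3BP1 and 110 and 131 TPM with IgG (-0.57 ± 0.16, adjusted p = 0.294). These differences did not pass the test, and they stand beside the edited shares of the same libraries, which are taken over reads and not over TPM.

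The editing comparison asks which transcripts gained edits with anti-G3BP1 over IgG. For each gene the edited share is the percent of reads with the edited base, summed over its sites that every library of the table covers with at least 10 reads, and the change is a log2 odds ratio of anti-G3BP1 over IgG from a quasi-binomial model. Intervals and limits on shares cover counting error only, since reads without molecular identifiers are not independent molecules. A read over several sites of a gene counts at each of them, so the intervals and limits may be too narrow even for that. Most member sites lay in 3′ UTRs: 84.7% of 111 in the fixed embryo, 84.2% of 330 in the libraries labelled fresh-frozen, 89.4% of 564 in E12.5 brain and 88.6% of 1075 in E16.5 brain, beside 64.8, 71.4, 67.3 and 70.2% of all such sites. Among the member sites, 20 in the libraries labelled fresh-frozen had edited reads in both anti-G3BP1 libraries and in neither IgG library, and 3 had the reverse. In E16.5 brain the counts were 42 and 8, in E12.5 brain 4 and 0, and in the fixed embryo 1 and 3. The first pattern thus held for 6.06% of member sites beside 6.27% of all sites in the libraries labelled fresh-frozen, 3.91 beside 3.02% in E16.5 brain, 0.709 beside 1.10% in E12.5 brain and 0.901 beside 1.23% in the fixed embryo. The reverse held for 0.909 beside 0.838%, 0.744 beside 1.22%, 0.0 beside 0.145% and 2.70 beside 2.13% in the same order. These shares were near those of all sites and are no result about the members.

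Rbfox2 was the member called among the libraries labelled fresh-frozen, and 4 members had an unadjusted p under 0.05, beside 14.1% of all genes. Its edited share was 2.14% (95% Wilson interval 1.61 to 2.84) and 2.94% (2.39 to 3.60) in the anti-G3BP1 libraries. It was 0.511% (0.286 to 0.913) and 0.703% (0.440 to 1.12) in the IgG libraries, and 0.312% (0.164 to 0.592) and 0.170% (0.0662 to 0.437) in the untreated libraries. The groups did not overlap, and the 27 sites behind these shares held between 2149 and 3028 reads per library. The log2 odds ratio was 2.10 ± 0.43 (SE, adjusted p = 0.0106), one of 112 calls among 7836 genes (1.43%), all of them higher. The call was lost when any of the 4 libraries was left out (adjusted p between 0.0897 and 0.567, with log2 odds ratios of 1.81 to 2.35), with limma on the empirical logit (adjusted p = 0.281) without the gene's most edited site (2.01, adjusted p = 0.0541) and with C-to-T sites alone (1.65, adjusted p = 0.743). It held with edgeR (2.08, adjusted p = 0.0157) and with A-to-G sites alone (2.24, adjusted p = 0.0229).

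That site was the first one printed for Rbfox2, 238 bases upstream of the annotated 3′ end. It was edited in 17 of 154 and 23 of 262 reads with anti-G3BP1, in 1 of 141 and 6 of 181 reads with IgG, and in 0 of 138 and 0 of 128 untreated reads. The C-to-T site had 4 of 195 and 19 of 365 edited reads with anti-G3BP1, 0 of 231 and 0 of 225 with IgG, and 2 of 125 and 0 of 130 without treatment. The second A-to-G site had 3 of 99 and 9 of 175 with anti-G3BP1, 0 of 136 and 1 of 137 with IgG, and 0 of 70 and 0 of 68 without treatment. All 3 sites lay within 238 bases of the 3′ end. In E16.5 brain the same 3 sites had 7 of 285 and 17 of 442, 1 of 241 and 9 of 354, and 3 of 125 and 7 of 197 edited reads with anti-G3BP1, against 6 of 528 and 6 of 364, 1 of 439 and 3 of 317, and 0 of 236 and 2 of 170 with IgG. At E12.5 the first site had 2 of 42 and 0 of 46 against 0 of 12 and 0 of 46 with IgG. The C-to-T site there had 0 of 22 and 0 of 37 against 0 of 8 and 2 of 46 with IgG. The second A-to-G site there had 0 of 8 and 2 of 24 against 0 of 5 and 0 of 19 with IgG.

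The other members were not called in the libraries labelled fresh-frozen. Of all 10, 8 had both anti-G3BP1 libraries above both IgG libraries and 0 had the reverse, beside 47.1% of all genes above and 4.48% below. The members had more edited reads to compare, with a median of 18 per library and gene against 5 over all genes. The median log2 odds ratio of the 10 was 0.83, beside 0.91 over all genes. Nova1 had edited shares of 1.52 and 1.68% with anti-G3BP1, 0.270 and 0.625% with IgG and 0.209 and 0.588% without treatment (1.83 ± 0.60, adjusted p = 0.137). Rbfox1 had 2.55 and 2.21% with anti-G3BP1, 0.935 and 0.785% with IgG and 0.702 and 0.946% without treatment, so that its IgG shares overlapped the untreated ones (1.44 ± 0.55, adjusted p = 0.210). Ptbp2 had 2.30 and 1.52% with anti-G3BP1, 0.885 and 0.964% with IgG and 0.687 and 0.284% without treatment (0.98 ± 0.46, adjusted p = 0.337). Elavl2, Elavl3, Elavl4 and Nova2 had log2 odds ratios of 0.90 ± 0.47, 0.77 ± 0.39, 0.68 ± 0.40 and 0.51 ± 0.37, with no overlap between anti-G3BP1 and IgG.

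Rbfox3 and Ptbp1 were the exceptions. Rbfox3 had 0.892 and 0.236% with anti-G3BP1, 0.624 and 1.01% with IgG and 0.105 and 0.364% without treatment, and its log2 odds ratio was -0.77 ± 0.61 (adjusted p = 0.504). The 2 anti-G3BP1 libraries lay on different sides of the lower IgG library. Ptbp1 rested on 6 sites and had 0 of 324 and 8 of 490 edited reads with anti-G3BP1, 2 of 213 and 2 of 257 with IgG, and 0 of 270 and 0 of 201 without treatment, where 0 of 324 allows a share of up to 0.926%. Its log2 odds ratio was 0.13 ± 1.16, and its direction turned with several settings. IgG shares exceeded untreated shares without overlap for 8 of the 10 genes, beside 31.5% of all genes, and anti-G3BP1 shares did so for 8, beside 62.5%. Here too the members had more edited reads to compare than genes at large.

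**Figure D3:**
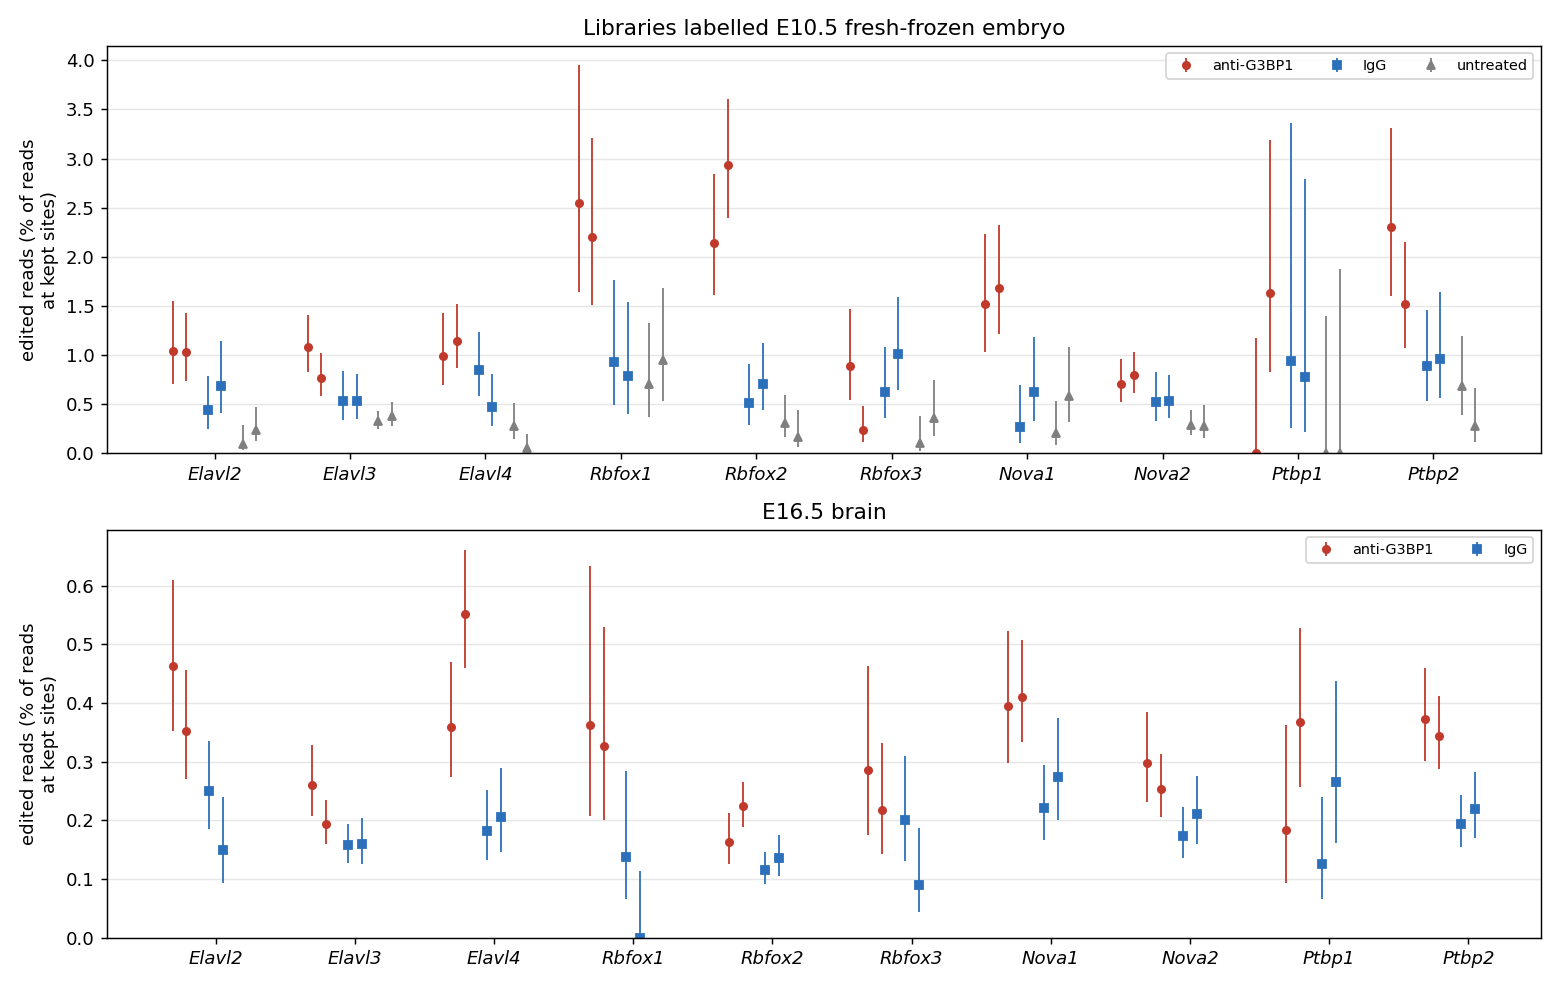
Percent of reads edited per gene in each library labelled E10.5 fresh-frozen (upper panel) and each E16.5 brain library (lower panel), with 95% Wilson intervals for counting error, coloured by antibody. Rbfox2 stands at 2.14 and 2.94% with anti-G3BP1 against 0.511 and 0.703% with IgG in the upper panel, and the scale of the lower panel is smaller.

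E16.5 brain held the most reads and called the most members. The 4 called were Elavl4, Ptbp2, Rbfox2 and Elavl2, all higher with anti-G3BP1, where 6.65% of 11741 genes were called higher and 0 lower. At an unadjusted p under 0.05 there were 8 members, beside 18.1% of all genes. All 10 members had a positive log2 odds ratio, as had 77.7% of all genes, and their median was 0.72, beside 0.65 over all genes. For 9 of the 10 both anti-G3BP1 libraries lay above both IgG libraries, beside 42.1% of all genes. The members had more edited reads to test, with a median of 51 per library and gene against 7 over all genes.

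Elavl4 had the largest change among the 4. Its edited share was 0.359% (0.274 to 0.471) and 0.551% (0.459 to 0.661) with anti-G3BP1, and 0.182% (0.132 to 0.251) and 0.205% (0.145 to 0.289) with IgG, over 86 sites and 14480 to 20692 reads per library. The log2 odds ratio was 1.30 ± 0.28 (adjusted p = 0.000553). Of its 86 sites 54 were more edited with anti-G3BP1 when libraries were pooled, 17 with IgG, and 15 had no edited read in either group. The same counts were 53, 28 and 31 for Ptbp2 and 63, 45 and 83 for Rbfox2. The split over all sites was not counted, so these counts are no result about the members. Its printed site had 3 of 97 and 8 of 123 edited reads with anti-G3BP1 and 1 of 132 and 4 of 96 with IgG, and in the libraries labelled fresh-frozen 4 of 40 and 4 of 57 with anti-G3BP1, 0 of 47 and 0 of 36 with IgG, and 2 of 75 and 1 of 62 without treatment. In E16.5 brain the groups overlapped at that site. In E12.5 brain it had 0 of 23 and 0 of 32 with anti-G3BP1 and 0 of 20 and 2 of 40 with IgG.

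Ptbp2 had edited shares of 0.372% (0.302 to 0.459) and 0.344% (0.287 to 0.411) with anti-G3BP1, and 0.193% (0.154 to 0.242) and 0.219% (0.170 to 0.283) with IgG (0.80 ± 0.22, adjusted p = 0.0114). The replicates lay close together and the groups apart. Its first printed site, edited in both anti-G3BP1 libraries of 3 tables, had 7 of 273 and 10 of 398 edited reads with anti-G3BP1 and 5 of 420 and 1 of 294 with IgG at E16.5. Among libraries labelled fresh-frozen that site had 8 of 117 and 9 of 190 with anti-G3BP1 and 9 of 185 and 7 of 143 with IgG, where the groups overlapped. Untreated libraries had 2 of 92 and 1 of 114 there. In E12.5 brain it had 1 of 52 and 3 of 63 with anti-G3BP1 and 0 of 25 and 3 of 88 with IgG. The second site had 5 of 200 and 9 of 367 with anti-G3BP1 and 2 of 304 and 0 of 207 with IgG in the libraries labelled fresh-frozen, and 1 of 213 and 4 of 341 against 0 of 364 and 0 of 245 at E16.5.

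Rbfox2 had shares of 0.164 and 0.224% with anti-G3BP1 and 0.116 and 0.136% with IgG at E16.5 (0.70 ± 0.23, adjusted p = 0.0389). They were taken over 191 sites, of which 83 had no edited read. Each table has its own set of sites, so these shares are not compared with those of other tables. The A-to-G sites of Rbfox2 alone gave a log2 odds ratio of 1.48 (adjusted p = 0.00389) and its C-to-T sites alone gave -0.013. Elavl2 had 0.463 and 0.352% with anti-G3BP1 and 0.249 and 0.1499% with IgG (0.92 ± 0.31, adjusted p = 0.0498), close to the threshold. Elavl4 stayed called without IgG replicate 2 (adjusted p = 0.0280) and was lost without any other library (0.134 to 0.209), and the other 3 calls were lost whichever library was left out. Without each gene's most edited site Elavl4 (adjusted p = 0.0033) and Ptbp2 (0.0112) passed, whereas Rbfox2 (0.132) and Elavl2 (0.0796) did not. With limma on the empirical logit 0 members and 0 of all genes passed, with 0 members and 1459 genes at an unadjusted p under 0.05.

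The 6 other members at E16.5 were not called. Nova1 had 0.394 and 0.411% with anti-G3BP1 and 0.221 and 0.274% with IgG (0.74 ± 0.27, adjusted p = 0.0760), and A-to-G sites alone gave 1.59 (adjusted p = 0.0207). Rbfox1 had 0.363 and 0.327% with anti-G3BP1 and 0.138 and 0.0% with IgG, where 0 of 3368 reads allows up to 0.0891% (1.97 ± 0.88, adjusted p = 0.186). Nova2, Elavl3, Rbfox3 and Ptbp1 had log2 odds ratios of 0.52 ± 0.24, 0.45 ± 0.22, 0.66 ± 0.50 and 0.68 ± 0.52. Only Ptbp1 overlapped between the antibodies, with 0.184 and 0.368% with anti-G3BP1 and 0.126 and 0.266% with IgG. G3bp1 had 0.303 and 0.297% with anti-G3BP1 and 0.165 and 0.1004% with IgG (1.11 ± 0.41, adjusted p = 0.0819).

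**Figure D4:**
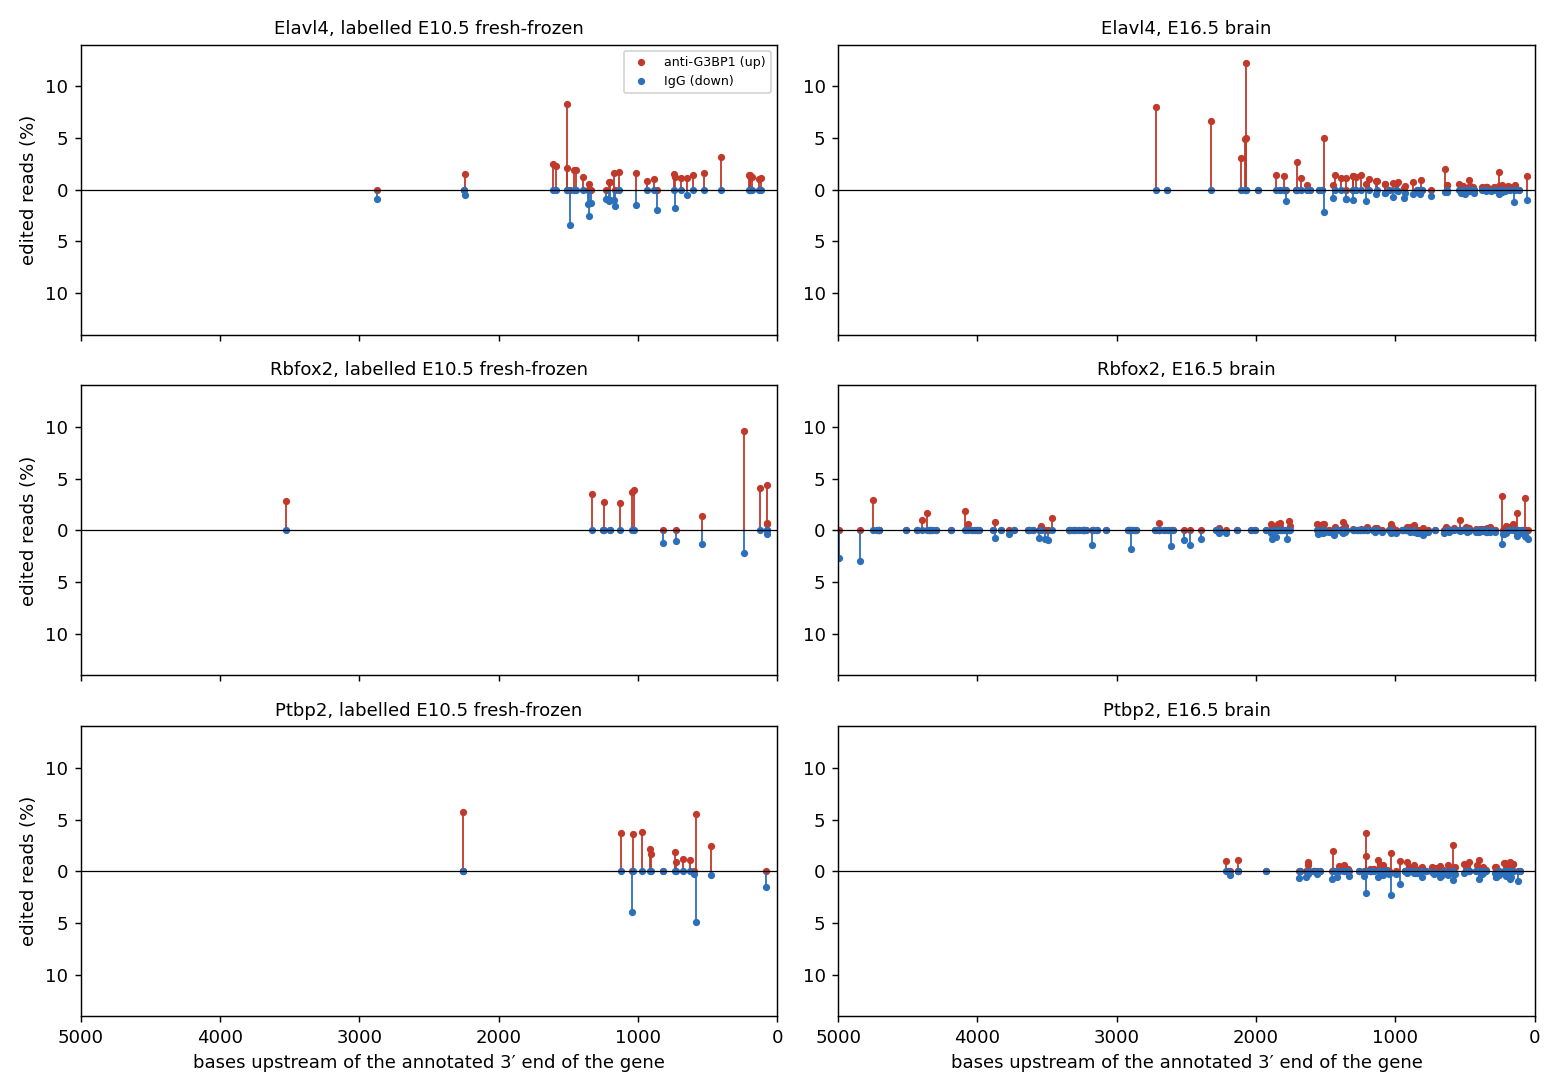
Percent of reads edited at each site of Elavl4, Rbfox2 and Ptbp2 by distance in bases from the annotated 3′ end of the gene, libraries of a group pooled, with anti-G3BP1 upward and IgG downward, for those labelled fresh-frozen (left) and E16.5 brain (right). Sites more than 5000 bases away are not drawn (6, 11 and 4 on the left and 0, 6 and 2 on the right); the Rbfox2 sites nearest the 3′ end are edited with anti-G3BP1 in both columns.

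In E12.5 brain 9 of the 10 genes were tested, since no Rbfox1 site passed the depth minimum, and none was called. Of all 5568 genes 0 (0.0%) were called in either direction, with 171 (3.07%) at an unadjusted p under 0.05, and edgeR and limma on the empirical logit called 1 gene each. Ptbp1 was the member at an unadjusted p under 0.05: it had 0.382 and 0.837% with anti-G3BP1 and 0.198 and 0.135% with IgG, which do not overlap (2.00 ± 0.96, adjusted p = 0.826). Both anti-G3BP1 libraries lay above both IgG libraries for 5 of the 9, beside 27.6% of all genes. The members had a median of 5 edited reads per library and gene, against 1 over all genes. Rbfox2 had 0.426 and 0.0812% with anti-G3BP1 and 0.122 and 0.0167% with IgG, on 13, 4, 2 and 1 edited reads (2.26 ± 1.23, adjusted p = 0.826). Rbfox3 had 2 and 14 edited reads with anti-G3BP1 and 0 and 2 with IgG (2.39 ± 1.42, adjusted p = 0.826). Of the 564 member sites 431 were unedited throughout the table, IgG replicate 1 had a mean depth of 23.2 reads, and the standard errors of the members' changes ran from 0.58 to 1.42. The count over all genes moved with the anti-G3BP1 libraries: it was 38 without their replicate 2, 10 without their replicate 1 and 0 without either IgG library, with 0 members in each.

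In the fixed E10.5 embryo 7 genes were tested. No site was listed for Elavl2 or Rbfox1 and none passed the depth minimum for Rbfox3, which were also the 3 members with the lowest TPM there. None was called, where 1 of 5594 genes (0.0179%) was. At an unadjusted p under 0.05 there were 0 members in the quasi-binomial model, beside 2.7% of all genes, and edgeR and limma called 0 members. In addition, none of the 7 had both anti-G3BP1 libraries above both IgG libraries, beside 21.6% of all genes. Ptbp2 had 0.0 and 0.329% with anti-G3BP1, 0.351 and 0.439% with IgG and 0.343 and 0.427% without treatment, so that both anti-G3BP1 libraries lay below all others (-1.34 ± 1.09, adjusted p = 0.907), beside 12.2% of all genes below IgG. Those shares rested on 0 and 4 edited reads with anti-G3BP1, and 0 of 1697 reads allows up to 0.177%. Nova2 had 2 and 6 edited reads with anti-G3BP1 and 2 and 2 with IgG (1.60 ± 1.23, adjusted p = 0.907). Shares with IgG stood above untreated shares without overlap for 0 of the 7 genes, beside 17.8% of all genes, and shares with anti-G3BP1 for 0, beside 19.4%.

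**Figure D5:**
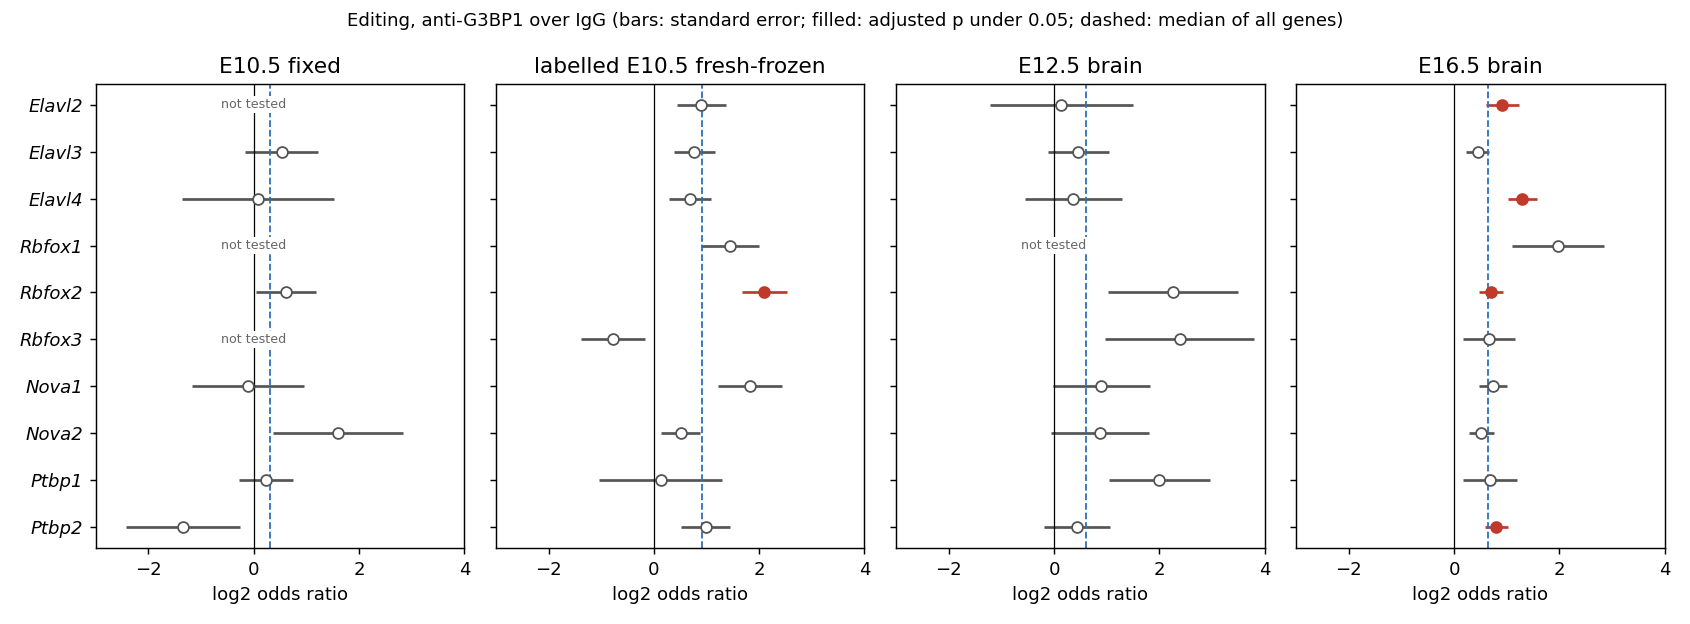
Log2 odds ratio of editing, anti-G3BP1 over IgG, for each gene, down the page, in each table, one panel each, with standard errors. Filled points passed an adjusted p under 0.05, and the dashed line is the median of all genes tested, from 0.31 in the fixed embryo to 0.91 in those labelled fresh-frozen.

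Whether the antibody effect differed between E16.5 and E12.5 brain was tested as an interaction over 29689 sites present in both tables, which left 2804 genes and 9 members. None of the 9 passed and none had an unadjusted p under 0.05, where 0 of all genes (0.0%) were called and 70 had an unadjusted p under 0.05 in the quasi-binomial model. The differences in log2 odds ratio ran from -3.08 ± 2.81 for Rbfox3 to 1.62 ± 0.81 for Elavl3, whose standard errors show how little the shared sites can tell. The calls at E16.5 are therefore not shown to differ from E12.5. For Elavl3 the direction at E12.5 turned with the set of sites. Over the shared sites it had 0.195 and 0.171% with anti-G3BP1 and 0.277 and 0.377% with IgG. Over all its kept E12.5 sites it had 0.211 and 0.265% with anti-G3BP1 and 0.185 and 0.172% with IgG.

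The list of other regulators had calls in the same tables. In the libraries labelled fresh-frozen 2 of 18 tested were called in the quasi-binomial model, beside 1.43% of all genes. They were Celf2 (1.32 ± 0.24, adjusted p = 0.00503) and Celf4 (1.51 ± 0.38, adjusted p = 0.0432). The list median was 0.87, beside 0.91 over all genes. In E16.5 brain 6 of 19 were called, beside 6.65% of all genes: Khdrbs1 (1.54), Khdrbs3 (1.37), Elavl1 (1.09), Celf4 (1.08), Celf2 (0.89) and Qk (0.75). The list median there was 0.80, beside 0.65 over all genes. Elavl1 codes for HuR, the ubiquitous relative of the neuronal Hu proteins, and Qk for the STAR protein Quaking. None of 15 in E12.5 brain and none of 11 in the fixed embryo was called. Celf2 and Celf4 were the 2 regulators of that list called in both tables, beside Rbfox2 among the 10 genes. These calls depended on the method. With limma on the empirical logit, and with C-to-T sites alone, 0 of the list were called in either table. With edgeR 2 were called in the libraries labelled fresh-frozen and 4 in E16.5 brain. With the replicate number in the model these counts were 0 and 6. The edited reads of the list were not set beside those of all genes, so its shares of calls are no result about the list.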

How the data were processed

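The 4 deposited editing tables hold counts by the authors, per the file headers: reads covering a site and reads with the edited base in each library. In 18 of 20 libraries fewer sites had 1 edited read than 2. The 4 deposited tables of TPM by the authors sum to 1000000 in each library. The submitters' processing notes name featureCounts 2.0.1, Subread, GATK 4.5.0.0, Picard 3.1.1, HISAT2 2.2.1 and BWA 0.7.17, with GRCm38 and mm10. The role of each tool, the annotation and the calling of sites are not given in the sources used.

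Repeated lines were removed. A site was kept where all libraries of its table had at least 10 reads, even with no edited read, which lowers the shares. Per gene, reads were added over sites, and a gene whose total reached 50 in each library was fitted with a quasi-binomial model after adding 0.25 edited and 0.25 unedited reads, the dispersion moderated with squeezeVar of limma 3.58.1 and kept at 1 or more. For TPM, limma with a trended prior was run on log2(TPM + 1), where 2 or more libraries reached 1 TPM, after rescaling both brain tables to their shared genes for the stage comparison. Tests are two-sided with Benjamini-Hochberg adjustment over all genes tested. On simulated data, only the quasi-binomial model for the libraries labelled fresh-frozen and E16.5 brain, and the stage comparison of TPM, were run. The other comparisons were not simulated. Between replicates of a group, chi-square over degrees of freedom was 7.21 to 19.3 for read depth summed per gene. It does not measure the scatter of edited shares. A read over several sites of a gene may count at each and raise this value, so it does not show excess over sampling noise. Replicates were kept apart in the fitted models. They were pooled for the counts of sites more edited with either antibody and for the plot of edited share by site position. Up to 9 kept Elavl3 sites per table are also listed under Gm49318, so their reads may belong to either gene. Bases at 2170 member sites were checked against GENCODE transcripts, with 0 mismatches.

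The members and lists were chosen with earlier results of these data known. Named were all 10 members, regulators of the related list that were called, up to 3 sites per member by the number of tables with edited reads in both anti-G3BP1 libraries, and the 3 nearest genes to Rbfox3 and to Ptbp1 (10 TPM or more in at least 2 libraries). Alternatives were another read minimum (20), A-to-G or C-to-T sites alone, dropping sites with 50% or more edited reads, limma on the empirical logit, edgeR 4.0.16, another pseudocount (0.1), no filter, other scalings, a replicate block and leaving out each library. Leaving out each gene's most edited site, and the TPM test between antibodies, were added after the data were seen.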

Additional observations from a re-analysis of the deposited data

Results flagged for a closer look

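Each value here is a difference between 2 tables of the log2 ratio of group means, anti-G3BP1 over IgG, where both anti-G3BP1 libraries lay on one side of both IgG libraries in one table and on the other side in the other table. None of these differences was tested. The share of all genes that meet this rule was not counted, so they are no result about the members. The edited share of Ptbp2 averaged 1.91% with anti-G3BP1 and 0.925% with IgG in the libraries labelled fresh-frozen, and 0.164% with anti-G3BP1 and 0.395% with IgG in the fixed embryo, a difference of 2.31. In E16.5 brain it averaged 0.358% with anti-G3BP1 and 0.206% with IgG, which differed from the fixed embryo by 2.06.

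Ptbp1 TPM lay above IgG in the libraries labelled fresh-frozen (29.8 with anti-G3BP1 and 18.8 with IgG) and in E16.5 brain (65.9 and 61.3), and below IgG in the fixed embryo (206 and 233) and in E12.5 brain (75.9 and 101). The libraries labelled fresh-frozen differed by 0.84 from the fixed embryo and by 1.08 from E12.5 brain, and E16.5 brain differed by 0.28 from the fixed embryo and by 0.52 from E12.5 brain. Rbfox1 TPM lay above IgG in E16.5 brain (46.6 with anti-G3BP1 and 44.7 with IgG) and below it in the fixed embryo (2.15 and 3.03, a difference of 0.55) and in the libraries labelled fresh-frozen (143 and 213, a difference of 0.63). Nova1 TPM averaged 123 with anti-G3BP1 and 117 with IgG in E16.5 brain and 93.6 with anti-G3BP1 and 107 with IgG in the libraries labelled fresh-frozen, a difference of 0.26.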

How the results depend on the processing

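The stage comparison of TPM called 8 of the 10 genes under every alternative run. Only Elavl3 turned its sign, at 0.028 with quantile normalization and between -0.12 and 0.046 when single libraries were left out.

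The editing counts depended on the method, and the cause was not tested. In the fixed embryo the 1 gene called became 3 with A-to-G sites alone and 0 with C-to-T sites alone, without sites edited in 50% of reads or more, with limma on the empirical logit, with edgeR and without each gene's most edited site. In the libraries labelled fresh-frozen the 112 genes became 0 with C-to-T sites alone, 0 with limma, 229 with edgeR and 51 without each gene's most edited site; the 1 member became 0 with C-to-T sites alone, limma and that removal. In E12.5 brain the 0 genes became 1 with a minimum of 20 reads, 1 with limma and 1 with edgeR. In E16.5 brain the 781 genes became 497 with A-to-G sites alone, 18 with C-to-T sites alone, 0 with limma and 405 without each gene's most edited site. The 4 members there became 0 with C-to-T sites alone, 0 with limma, 2 with edgeR (Elavl4 and Ptbp2) and 2 without the most edited site. Leaving out single libraries, which assumes that a lone library varies like the others, gave 0 to 1 genes in the fixed embryo, 0 to 22 genes and 0 to 0 members in the libraries labelled fresh-frozen, 0 to 38 genes in E12.5 brain, and 0 to 168 genes and 0 to 1 members in E16.5 brain.

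Signs turned for weakly measured members. In the libraries labelled fresh-frozen Ptbp1 was -0.23 with a minimum of 20 reads and without its most edited site, -3.90 with A-to-G sites alone, -1.05 with limma and between -3.65 and 0.83 with single libraries left out. There Rbfox3 lay between -1.41 and 0.14 with single libraries left out, and Nova2 was -0.0053 with C-to-T sites alone. Rbfox3 in E12.5 brain was -0.29 with A-to-G sites alone, and Rbfox2 in E16.5 brain -0.013 with C-to-T sites alone. Ptbp1 in E16.5 brain lay between -0.013 and 1.25, and the Rbfox3 difference between stages between -4.09 and 1.30, with single libraries left out.

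The replicate number did not pair the libraries in editing. Deviations of same-numbered anti-G3BP1 and IgG libraries correlated at 0.0021, 0.028, -0.040 and -0.00066 over genes in the 4 editing tables. For TPM, replicate differences at E16.5 were correlated with those at E12.5, at -0.0049 for anti-G3BP1 and 0.021 for IgG. These 2 values cannot tell whether the replicate number pairs the antibodies within a stage. With the replicate block 0 genes were called in the fixed embryo, 14 genes and 0 members in the libraries labelled fresh-frozen (Rbfox2 2.07, adjusted p = 0.0616), 0 genes in E12.5 brain, 743 genes and 3 members in E16.5 brain, 0 for the difference between stages, and 8 members in the TPM comparison.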
